A study of Caenorhabditis elegans with 2 samples.

Results

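The regions described here are the autosomal promoter peaks of CND-1 in Caenorhabditis elegans embryos. A peak was taken from the authors' thresholded list when its summit lay on one of the 5 autosomes, between 500 bp upstream and 100 bp downstream of an annotated transcript start of a protein-coding gene. Summits within 100 bp of a tRNA, snoRNA, snRNA or ncRNA gene were left out, which removed 97 of the 566 autosomal summits in such windows. The remaining 469 promoter peaks made up 32% of the 1465 autosomal peaks (95% exact interval 29.6 to 34.5), and the whole list held 1964 peaks. No signal value entered the choice beyond the authors' own threshold. They are set against 234 autosomal intronic peaks, 341 autosomal intergenic peaks outside promoters and 114 promoter peaks of the X chromosome.

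The data come from ChIP-seq with an anti-GFP antibody on whole embryos of mixed stage and pooled sex, obtained by egg bleaching and labelled as 3 hours old. There were 2 biological replicates of 1 group, strain OP349, with the genotype unc-119(ed3) III; wgIs349 and a stably carried transgene for CND-1 with GFP and FLAG at its C-terminus. The tagged copy comes in addition to whatever endogenous CND-1 the animals make, and its promoter is not given in the labels. No other genotype, stage or treatment was compared, and the labelled control was not analysed here. A whole embryo mixes all its cells, so a site held in few cells and a site held weakly in many cannot be told apart, and peak lists carry no expression markers with which to check the cells. The read depth is unknown, and every interval given covers the counting of peaks only.

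CND-1 belongs to the NeuroD family of basic helix-loop-helix proteins, which in vertebrates promotes the differentiation of neurons. In C. elegans it is made in the early nervous system and contributes to the fate and axon paths of ventral cord motor neurons. Such proteins bind as dimers to E-boxes, the letters CANNTG. The version CAGATG, which is CATCTG when read on the other strand, is the one preferred by vertebrate NeuroD and neurogenin proteins and is called the NeuroD-type E-box below. Promoters in C. elegans are compact, many genes lie head to head with a shared upstream region, and many messages are trimmed by trans-splicing, so that an annotated start can lie downstream of the true initiation site.

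The strongest promoter peaks show the 3 situations that the sequence results turn on: a NeuroD-type E-box at the summit, a different E-box only, or none at all. Each line gives the bases around the summit of 1 peak as read from the RefSeq sequence of ce11, on the strand of the nearest gene, 5′ to 3′, with E-boxes in capitals. The first 5 are among the strongest with a NeuroD-type E-box outside the exons of protein-coding genes, and R02F2.1 holds 3 copies.
fbxc-51, II:868394-868513, plus strand: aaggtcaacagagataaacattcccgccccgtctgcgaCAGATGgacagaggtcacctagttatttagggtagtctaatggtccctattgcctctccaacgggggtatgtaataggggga
C16C10.4, rnf-121, III:4171134-4171253, plus strand: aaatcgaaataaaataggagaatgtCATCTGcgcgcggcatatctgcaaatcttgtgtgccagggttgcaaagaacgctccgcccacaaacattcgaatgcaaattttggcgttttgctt
flh-1, IV:9263981-9264100, minus strand: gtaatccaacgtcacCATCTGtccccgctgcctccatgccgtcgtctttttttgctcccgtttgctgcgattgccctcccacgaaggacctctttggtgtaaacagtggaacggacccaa
cank-26, II:3975096-3975215, minus strand: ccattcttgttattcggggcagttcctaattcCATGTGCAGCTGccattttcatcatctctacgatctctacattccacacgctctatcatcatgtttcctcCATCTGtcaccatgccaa
R02F2.1, III:5501466-5501585, plus strand: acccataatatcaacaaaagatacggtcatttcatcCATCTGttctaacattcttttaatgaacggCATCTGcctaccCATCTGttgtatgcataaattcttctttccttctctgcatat
The next 5 hold another E-box only. The summits of rpl-3, atx-2 and cdc-48.1 hold CAAGTG, written CACTTG on the other strand, that of mig-5 holds CAGCTG and that of idhg-1 holds CACGTG.
rpl-3, III:3867509-3867628, plus strand: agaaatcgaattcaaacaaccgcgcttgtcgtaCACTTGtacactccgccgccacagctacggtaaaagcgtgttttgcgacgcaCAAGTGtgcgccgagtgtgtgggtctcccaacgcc
atx-2, III:10461263-10461382, plus strand: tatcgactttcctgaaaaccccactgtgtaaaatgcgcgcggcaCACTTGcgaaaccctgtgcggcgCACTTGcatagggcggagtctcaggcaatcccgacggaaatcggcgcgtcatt
cct-1, mig-5, II:8185155-8185274, minus strand: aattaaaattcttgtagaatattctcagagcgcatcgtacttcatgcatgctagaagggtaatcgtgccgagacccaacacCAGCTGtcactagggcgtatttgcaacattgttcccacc
cdc-48.1, II:10563511-10563630, minus strand: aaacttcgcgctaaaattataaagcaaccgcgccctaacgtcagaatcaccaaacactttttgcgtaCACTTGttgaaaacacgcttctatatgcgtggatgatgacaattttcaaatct
idhg-1, III:4568688-4568796, plus strand: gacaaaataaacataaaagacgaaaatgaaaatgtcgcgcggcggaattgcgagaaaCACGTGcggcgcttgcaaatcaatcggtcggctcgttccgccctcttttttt
The last 4 hold no E-box. Runs that alternate G and C, such as gcgcgc, are seen in several of the 14 sequences, and their frequency is given with the 6-mers.
tasp-1, III:10759183-10759302, plus strand: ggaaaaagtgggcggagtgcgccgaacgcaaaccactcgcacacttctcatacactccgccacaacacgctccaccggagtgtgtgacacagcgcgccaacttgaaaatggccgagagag
rpl-15, K11H12.8, IV:654858-654977, minus strand: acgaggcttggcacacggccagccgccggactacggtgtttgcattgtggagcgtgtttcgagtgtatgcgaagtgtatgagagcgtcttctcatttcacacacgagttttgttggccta
his-31, his-32, IV:8334116-8334235, plus strand: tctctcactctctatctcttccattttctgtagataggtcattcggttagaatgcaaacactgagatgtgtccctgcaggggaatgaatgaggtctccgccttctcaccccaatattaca
hsp-1, IV:17278548-17278667, plus strand: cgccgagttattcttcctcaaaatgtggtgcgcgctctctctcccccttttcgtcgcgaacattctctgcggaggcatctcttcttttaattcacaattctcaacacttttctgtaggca

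The strongest promoter peaks included those of many genes for general cell functions. The signal is a value of the peak caller, taken as deposited by the authors, a measure of enrichment with no stated scale. In the thresholded list it ran from 103.1 to 815.2 over the 469 promoter peaks, with a median of 149.8, against a median of 148.9 over all autosomal peaks. The highest value, 815.2, belonged to a peak at III:3867438-3867720, whose summit lay 285 bp before the start of rpl-3, a large-subunit ribosomal protein gene. Its signal was 403.8 in replicate 1 and 415.7 in replicate 2. The second, between the core histone genes his-67 and his-68, had a signal of 762.8, with 344.1 in replicate 1 and 420.1 in replicate 2. Both were among the strongest regions of each replicate. The second held a NeuroD-type E-box at its summit, and the first did not.

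Other genes among the 20 strongest promoter peaks carry roles in protein synthesis, folding and turnover. The peak 66 bp upstream of atx-2, the gene for the ataxin-2 homologue, an RNA-binding protein, had a signal of 667.1 (328.7 in replicate 1 and 335.7 in replicate 2). That 64 bp upstream of tasp-1, for a taspase homologue, had 641.3 (317.9 and 328.0 in replicates 1 and 2). A peak shared by ears-2, a glutamyl-tRNA synthetase gene, and uncp-18 had 619.7 (331.4 and 290.8). All 3 differed by less than 1.5-fold between the replicates. The peak between cct-1, a subunit of the cytosolic chaperonin, and mig-5, a Dishevelled protein of the Wnt pathway, had 525.5 (233.2 and 291.0). That of cdc-48.1, an ATPase that extracts ubiquitinated proteins, had 489.8 (246.2 and 231.6). The peak of idhg-1, for a subunit of mitochondrial isocitrate dehydrogenase, had 479.7 (224.5 and 248.5). The peaks of rpl-15, rpl-20, the histone pairs his-31 with his-32 and his-59 with his-60, the Hsp70 gene hsp-1 and the Sm protein gene snr-1 lay between 390.9 and 499.9. The rest of the 20 belonged to Y44E3A.1, nmtn-1, fbxc-51, rnf-121 with C16C10.4, pir-2 and the FLYWCH zinc finger gene flh-1.

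The 2 replicates ranked the promoter peaks alike, which is partly built in, because the thresholded list was made from both replicates. A summit within 100 bp was found for 452 of the 469 in both full replicate lists of 30000 regions, and 9 were missing from replicate 1 and 8 from replicate 2. Across these 452 peaks, which share libraries and are not independent, the Spearman correlation of the signals was 0.689 and the Pearson correlation of their log2 values 0.776. Among 535 intronic and intergenic peaks the Spearman correlation was 0.606. Medians were 74.9 in replicate 1 and 79.9 in replicate 2, and 15 peaks differed by more than 2-fold. The largest differences towards replicate 2 were at T28B8.1 (29.3 in replicate 1 and 95.4 in replicate 2), at the peak shared by ify-1 and rpl-22 (42.2 and 132.6) and at ecps-1 (35.4 and 92.0). Those towards replicate 1 were at Y76B12C.6 (89.6 in replicate 1 and 36.6 in replicate 2), at the kinetochore gene knl-1 (116.8 and 52.7) and at WBGene00005324 (79.8 and 36.7). None of these 6 reached a thresholded signal above 174.3.

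**Figure D1:**
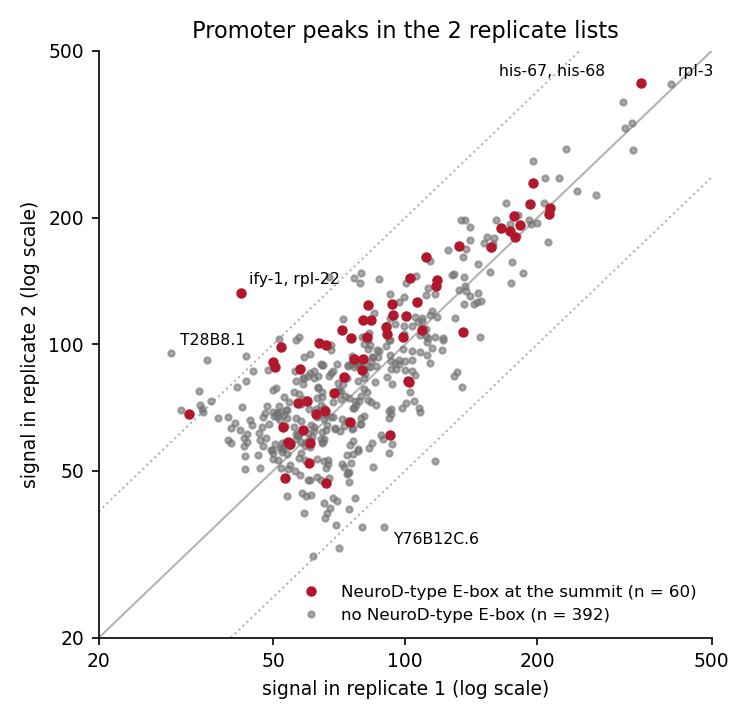
Signal of each promoter peak in replicate 1 (x axis) and replicate 2 (y axis), both on log scales without a stated unit, for the 452 peaks found in both full lists. Red points have a NeuroD-type E-box within the 100 bp around the summit, the solid line marks equal signals and the dotted lines a 2-fold difference, which 15 peaks exceeded.

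Promoter peaks were also more often found again than intergenic ones. A peak counted as found in both replicates when each replicate had a summit within 100 bp among its own 1964 strongest regions. This held for 325 of 469 promoter peaks (69.3%, exact interval 64.9 to 73.4), against 60.3% of intronic peaks (Fisher's exact test, two-sided, adjusted p = 0.0404) and 58.7% of intergenic peaks (Fisher's exact test, adjusted p = 0.009995). The replicate lists were the source of the thresholded list, so that some agreement is built in. Among the peaks above the median signal of the whole list the ratio of the shares was 1.01 against intronic peaks and 0.978 against intergenic peaks, and neither passed (adjusted p = 1 and 0.771 by Fisher's exact test). The signal exceeded the autosomal median in 51.6% of promoter peaks, against 42.8% of intergenic peaks (Fisher's exact test, adjusted p = 0.0404) and 44.4% of intronic peaks (adjusted p = 0.141). The call against intergenic peaks was lost with replicate 1 alone (ratio of shares 1.08) and with replicate 2 alone (1.09).

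Promoter sequence held summits more densely than intergenic, intronic and exonic sequence. There were 39.4 summits per Mb in 11.9 Mb of promoter windows, against 17.2 per Mb in intergenic sequence, 9.40 per Mb in introns and 2.29 per Mb in exons. Replicate 1 alone gave 38.4 promoter summits per Mb and replicate 2 alone gave 38.6. The share of promoter peaks changed with rank. It was 28.4% and 28.8% among ranks 1 to 500 of replicates 1 and 2, where 42.6% and 39.5% of the regions lay near a non-coding RNA gene. Among the next 500 ranks it was 35% and 34.7%, and beyond rank 10000 it was 16% and 15.5%, close to the 14.4% of autosomal sequence that promoter windows occupy.

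Most summits lay a short way upstream of the annotated start. The median promoter summit lay 165 bp upstream of the nearest start, with quartiles at 268 and 69 bp upstream, and 93.4% of the 469 lay upstream. The medians were 160 and 158 bp upstream in replicates 1 and 2 alone (replicate mean 159 ± 1.41 bp, SD, n = 2). Per Mb of promoter sequence at a given distance, density was highest from 200 to 1 bp upstream, at 58.9 per Mb in the farther 100 bp and 58.8 per Mb in the nearer. It was 22.9 per Mb between 500 and 401 bp upstream and 13.9 per Mb downstream of the start. By annotation, 362 of the summits lay outside protein-coding genes, 62 in introns, 36 in untranslated exons and 9 in coding exons, among them that of Y44E3A.1. At the upstream limit of the rule, F25H5.10 (signal 232.8) and ect-2 (202) lay inside at 500 bp, and atgp-1 (106.1) and cpg-4 (143.9) lay outside it by 1 and 2 bp. At the downstream limit, mps-2 at 86 bp (113) and F36D4.5 at 89 bp (106.8) lay inside, and vhp-1 at 108 bp (123.3) and D2045.9 at 114 bp (106) outside.

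**Figure D2:**
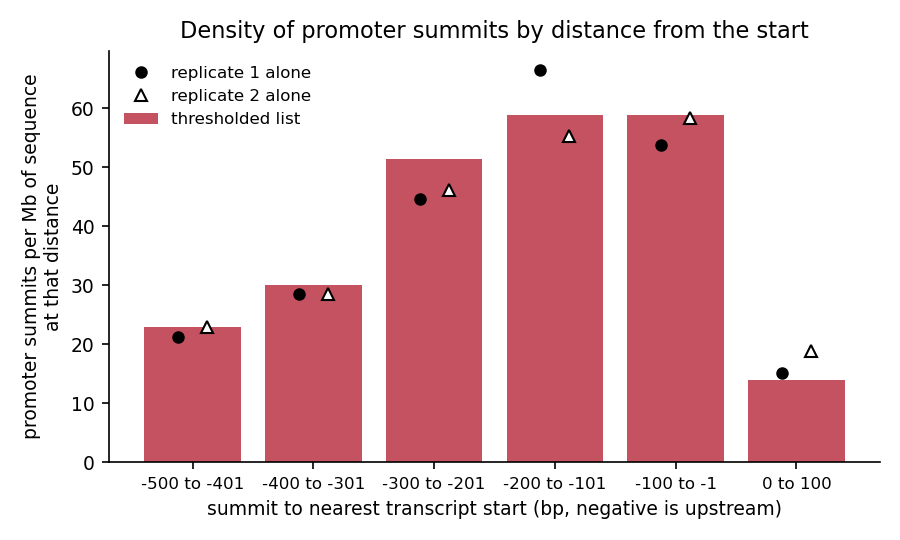
Number of promoter summits per Mb of promoter sequence (y axis) in bins of distance from the nearest transcript start (x axis, bp). Bars are the thresholded list and the symbols are each replicate's strongest regions alone. The density was highest in the 200 bp upstream of the start, at 58.9 and 58.8 per Mb, and was 13.9 per Mb downstream.

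Head-to-head promoters were prominent. A summit was called head to head when its window served genes on both strands, as between cct-1 and mig-5. This was so for 113 of the 469 promoter peaks (24.1%), while such sequence made up 5.70% of all promoter bases. The density was 166.5 summits per Mb in the 0.6785 Mb of head-to-head sequence, against 31.7 per Mb in the remaining promoter sequence. Replicate 1 alone gave 168.0 against 30.6 per Mb, and replicate 2 alone gave 165.1 against 30.9 per Mb. Head-to-head peaks were found in both replicates more often than the others, at 81.4% of 113 against 65.4% of 356 (Fisher's exact test, adjusted over 9 comparisons within the promoter peaks, p = 0.00445). That difference was lost among the peaks above the median signal of the whole list (ratio 1.02). Head-to-head sequence lies within the windows of more than 1 start, and the part of this in the density was not tested.

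E-boxes were more common at promoter summits than beside them. In the 100 bp around the summit, 243 of 469 promoter peaks held at least 1 E-box (51.8%, exact interval 47.2 to 56.4), against 121 (25.8%) in a window of the same length 300 bp farther from the gene. The ratio was 2.01 (exact McNemar test, two-sided, p = 5.00e-17). Replicates 1 and 2 alone gave 51.9% against 28.9% and 50.1% against 28.3%. Among the 25625 windows of this length centred 150 bp upstream of every autosomal protein-coding start, 30.1% held an E-box. The remaining 226 promoter peaks (48.2%) had none at the summit.

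Not every version of the E-box passed over the flank. Of the 10 versions, 6 did so (exact McNemar test, adjusted over the 10, threshold 0.05 for every call here). CAGATG was found in 60 summit windows against 19 flanks (12.8% against 4.05%, ratio 3.16, exact McNemar adjusted p = 1.02e-05). CAAGTG was found in 52 against 12 (ratio 4.33, adjusted p = 2.71e-06 by the same exact test), and CAGCTG in 41 against 8 (ratio 5.13, adjusted p = 2.71e-06). These 3 passed in each replicate alone as well. CACGTG (14 against 2), CACCTG (17 against 6) and CATATG (14 against 4) passed with both replicates but lost the call in at least 1 replicate alone. The other 4 had ratios between 1.34 and 1.73 and did not pass: CAAATG, the version CAACTG, the palindrome CAATTG and the version CACATG. Across all autosomal promoter windows, CAGATG stood in 3.42%, CAAGTG in 4.25% and CAGCTG in 1.76%.

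Summits were richer in G and C than their flanks, with a median of 49% against 34%, and this bears on every count against the flank. Among the 86 promoter peaks whose 2 windows differed by 5 percentage points of GC or less, a choice made after seeing the data, any E-box was 1.61 times as common at the summit (exact McNemar p = 0.0095). There CAGATG had a ratio of 3, CAAGTG 8 and CAGCTG 4, and none of them passed (adjusted p = 0.195, 0.195 and 0.234 by the exact McNemar test).

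The NeuroD-type E-box was less common at promoter summits than at intergenic and intronic summits. It was present in 12.8% of promoter peaks (exact interval 9.91 to 16.2), against 29.9% of intergenic peaks (Fisher's exact test, adjusted over 18 comparisons of classes, p = 5.14e-08) and 22.6% of intronic peaks (Fisher's exact test, adjusted p = 0.00947). The strongest regions of the replicates alone gave 13.2% ± 0.504 in promoter peaks, 28.0% ± 5.63 in intergenic and 23.4% ± 0.0273 in intronic peaks (SD, n = 2). The difference from intergenic peaks passed in both replicates alone and under every other setting tried. That from intronic peaks failed in 1 setting, when peaks near non-coding RNA genes were kept (ratio of shares 0.69, adjusted p = 0.078 by Fisher's exact test, against 0.56 without them). Promoter peaks of the X chromosome held it in 14% (16 of 114), and the autosomal share was 0.91 of that (Fisher's exact test, adjusted p = 0.851). The 363 autosomal peaks near a non-coding RNA gene, which are not among the classes compared, held it in 9.09%, with 9.71% and 8.96% in replicates 1 and 2 alone.

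The shares are given by signal as a description, with no test. Among peaks above the autosomal median signal, the NeuroD-type E-box was in 17.8% of 242 promoter peaks, 45.9% of 146 intergenic and 37.5% of intronic peaks. At or below the median it was in 7.49% of promoter, 17.9% of intergenic and 10.8% of intronic peaks. Flanks held it in 4.05% of promoter, 3.52% of intergenic and 1.71% of intronic peaks. The summit-to-flank ratio of 3.16 in promoter peaks was below the 8.50 of intergenic peaks (Fisher's exact test on the discordant pairs, adjusted p = 0.009995) and the 13.3 of intronic peaks (adjusted p = 0.0404). Neither difference kept its call in all settings: in replicate 1 alone the adjusted p was 0.256 for intergenic and 0.677 for intronic peaks. In replicate 2 alone the same Fisher's exact test gave 0.0142 for intergenic and 0.443 for intronic peaks. The call against intronic peaks was thus lost in each replicate alone. For E-boxes of any kind, promoter peaks had 51.8% against 61.6% of intergenic peaks (Fisher's exact test, adjusted p = 0.0232) and 117 of the 234 intronic peaks (adjusted p = 0.827). The call against intergenic peaks was absent in replicate 1 alone (ratio 0.938).

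**Figure D3:**
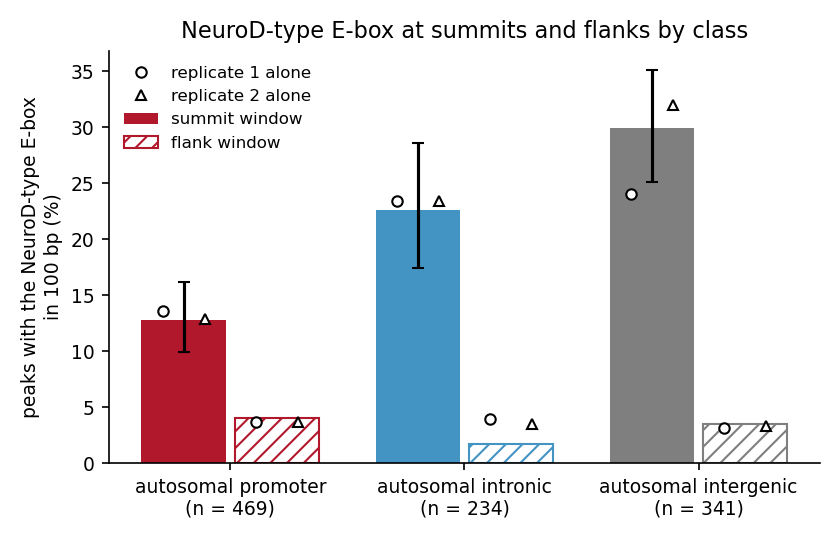
Share of peaks (y axis, %) with a NeuroD-type E-box in the 100 bp around the summit (filled bars, with 95% exact intervals) and in the flank window (hatched bars) for the 3 autosomal classes. Symbols are each replicate's strongest regions alone. The promoter bar stands at 12.8%, below 22.6% in intronic and 29.9% in intergenic peaks, while the flank bars lie between 1.71% and 4.05%.

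The nearest NeuroD-type E-box lay farther from the summit in promoter peaks than in intergenic and intronic peaks. Of the 125 promoter peaks with a copy within 200 bp, 27 (21.6%) had the nearest one within 20 bp of the summit, and the median distance was 52 bp. In intergenic peaks 58 of 144 (40.3%) did so, with a median of 27.5 bp, and in intronic peaks 35 of 95 (36.8%), with a median of 37 bp. The 20 bp with the highest share lay 0 to 20 bp from the summit in intergenic (8.80%) and intronic peaks (9.40%). In promoter peaks the highest bin, from -40 to -20 bp, held 3.62%, or 17 peaks. Negative here means a lower genome coordinate than the summit, whatever the strand of the gene. Each bin from -20 to 40 bp held 14 promoter peaks, so the profile was nearly flat there. These positions are given as a description. How far they follow from the lower share at promoter summits was not tested. Flank shares were 4.05% in promoter, 3.52% in intergenic and 1.71% in intronic peaks.

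**Figure D4:**
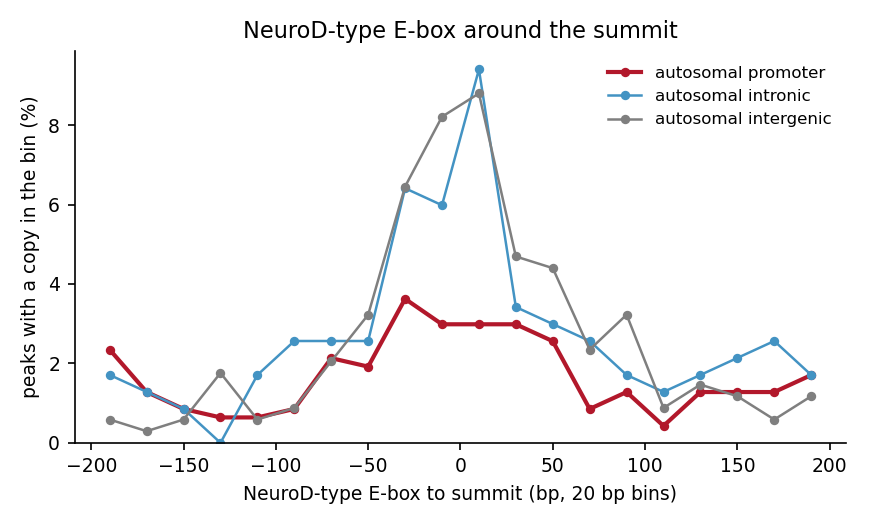
Share of peaks (y axis, %) with a NeuroD-type E-box in each 20 bp bin of distance from the summit (x axis, bp). Negative distances lie at lower genome coordinates, whatever the strand of the gene. The promoter line stays at or below 3.62%, while the intergenic and intronic lines reach 8.80% and 9.40% at the summit.

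Promoter peaks with a NeuroD-type E-box differed from the rest. Of the 60, 71.7% had a signal above the median of the promoter peaks, against 46.7% of the 409 without (Fisher's exact test, adjusted over the 9 comparisons, p = 0.00135). They were head to head in 6 of 60, against 26.2% of those without (Fisher's exact test, adjusted p = 0.009982). They were found in both replicates in 85%, against 67% of those without (Fisher's exact test, adjusted p = 0.00944). With the regions of replicate 1 alone the first ratio was 1.195 and the second 0.546, and neither passed. The third call, on both replicates, was lost among the peaks above the median signal of the whole list (ratio 0.994), with the 250 bp promoter window (1.244) and with 200 bp sequence windows (1.168). In 4 groups of equal size by signal the share with the E-box was 19.7% in the strongest, 17.1% and 7.69% in the next 2 and 6.78% in the weakest. E-boxes of any kind were present in 60.7% of the promoter peaks above their median signal and 43.0% of those at or below it (Fisher's exact test, adjusted p = 0.00133), with a ratio of 1.102 in replicate 1 alone, which did not pass. These comparisons within the promoter peaks were added after seeing the data.

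Repeated copies were rare. Of the 469 promoter peaks, 7 held 2 or more NeuroD-type E-boxes in the 100 bp. R02F2.1 (signal 301.4, with 132.4 in replicate 1 and 171.1 in replicate 2) and C03D6.9 (260.8, with 117.9 and 142.1) had 3 copies. Those with 2 were nmtn-1 (435), C40A11.6 (181.7), the F-box gene fbxb-105 (168), K02B12.2 (127.6) and T24C4.2 (117.7). All 7 were higher in replicate 2 than in replicate 1, while 170 of the 452 promoter peaks found in both full lists were higher in replicate 1.

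The leading summit-to-flank ratios in promoter peaks were those of short words rich in G and C. Of 2080 6-mers, each counted with its other-strand reading, 330 were called over the flank (15.9% of those tested, exact McNemar test, adjusted p under 0.05 and at least 1.5 times as common), and 238 of these had 4 or more letters G or C. Of the 330, 219 were also called in both replicates alone. The largest ratio was that of AGCGCG, in 48 summit windows against 1 flank. GCGCAC followed with 80 against 2, CGCCCC with 33 against 1 and GCGCGC with 55 against 2. The rest of the leading 10 were ACGGCC, then CGCGCG, then CCGCGC, then TGCGCA, then CGGCCG and GACGCA, the last with 84 against 5. The median ratio grew with the number of letters G or C in a 6-mer, to 4.35 for 6 of them, against 1.15 for 3 and 0.353 for 0. Set against other 6-mers with as many G or C, AGCGCG was first of 192. Among the E-boxes CATATG (14 summit windows against 4 flanks) was first of 492. It was not called in this scan (exact McNemar adjusted p = 0.0696). Of the E-boxes that were called, CAAGTG was 9th and CAGATG 35th of 640, and CACGTG 23rd and CAGCTG 38th of 492. No 6-mer was called among the 86 peaks with flanks of like GC content, where 41 had an unadjusted exact McNemar p under 0.05 and the same fold.

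Words more common in promoter peaks than in the other classes included many containing CG and some made of A and T only. Compared with the 575 intronic and intergenic peaks, 91 6-mers were more common in promoter peaks (4.38% of 2080, Fisher's exact test, adjusted, at least 1.5-fold) and 50 were less common (2.4%). Of the 91, 51 contained CG, and of the 50, 2 did, against 604 of all 2080. Another 15 of the 91 had at most 1 letter G or C, and 8 of these were among the 36 made of A and T only. The clearest among the higher ones was GCCGCA, in 13.2% of promoter peaks against 2.09% of the others (Fisher's exact test, adjusted p = 4.04e-09). TTGCAA was in 13.0% against 2.78% (adjusted p = 2.85e-07 by Fisher's exact test) and CTTGCA in 12.8% against 3.13% (adjusted p = 1.70e-06). The E-box CAAGTG belonged with these, at 11.1% against 5.04% (adjusted p = 0.0122 by Fisher's exact test). Among the lower ones, AGATGG was in 11.5% of promoter peaks against 25.7%, CAGATG in 12.8% against 27% and ACACAC in 10.2% against 20%. AGATGG and CAGATG overlap in 5 letters and are partly counted on the same sites. TTGCAA and CTTGCA overlap in 5 letters too, so they may be counted on the same sites.

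Known promoter words were counted in the same way, on both strands. CGCG was in 46.5% of promoter summits, against 10.2% of their flanks (exact McNemar adjusted p = 5.10e-34), 28.6% of intronic and 21.4% of intergenic summits (Fisher's exact test against both classes, adjusted p = 9.97e-13). All autosomal promoter windows held it in 12.0%. CCGCCC, the core of sites for Sp1-like factors in vertebrates, was in 12.6% against 1.49% of flanks. CTGCGTCTC, a word known from C. elegans promoters, was in 8.53% against 0.640% of flanks and 1.39% of all promoter windows, and its shares in intronic (8.55%) and intergenic (7.04%) summits did not differ from that by the test (adjusted p = 0.713 by Fisher's exact test). GAGAGA was in 18.1% of promoter summits against 5.12% of flanks, and in 31.1% of intergenic summits. The forkhead-like word TGTTTGC was in 7.04% of promoter summits, against 2.56% of flanks, 0.855% of intronic and 2.05% of intergenic summits (Fisher's exact test, adjusted p = 5.12e-05). Of the words rich in A and T, these were rarer at the summit than in the flank: TTTTTT in 15.6% against 42.9%, TATAAA in 3.20% against 11.3% and AGATAA, the letters bound by GATA factors, in 2.77% against 8.32%. TTTCAG, the letters of splice acceptors, was in 7.46% against 19.2% of flanks. Against the 2 other classes the direction differed: TTTTTT was in 15.6% of promoter summits, against 9.40% of intronic and 10.3% of intergenic summits (Fisher's exact test, adjusted p = 0.0116), and TTTCAG in 7.46%, against 2.14% and 2.64% (adjusted p = 6.46e-04 by the same exact test). CCAAT did not pass (14.5% against 16%). Matches are letters only and name no bound factor.

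A promoter peak served 580 of the 17242 autosomal protein-coding genes (3.36%), with 566 and 567 genes in replicates 1 and 2 alone and 421 in all 3 selections. Genes with a promoter peak had more than 1 annotated start in 44.1%, against 27.6% of all autosomal genes, and a gene with more starts offers more windows. The gene lists below are read against the 3.36% as counts, and their NeuroD-type E-boxes against the 12.8% of all promoter peaks, with no test. Of the 580, 148 belonged to at least 1 of the 34 lists.

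Histones, cytosolic ribosomal proteins and chromatin regulators had the largest shares, an order that turned in other settings. With the nearest start as the only gene of a peak, 15 of 79 ribosomal, 8 of 46 histone and 7 of 58 chromatin genes were left, against 6 of 27 in the Wnt pathway. With the narrower window of 250 bp upstream to 50 bp downstream, the counts were 9, 13 and 6, against 5 in the Wnt pathway and 7 of 46 in axon guidance. Promoter peaks served 22 of 79 genes for cytosolic ribosomal proteins (27.8%; 22 and 21 in replicates 1 and 2 alone), with a median signal of 191.3, against 152.4 over all genes with a promoter peak. After rpl-3, rpl-15 and rpl-20, the strongest was that of rps-28 (367.8). Of these 22 peaks, 13 were head to head and 1, shared by ify-1 and rpl-22, held a NeuroD-type E-box. Translation factors had 8 of 37, led by eif-3.C (330.1) and iff-2 (327.8), a subunit gene of initiation factor 3 and an eIF5A gene. By contrast, mitochondrial ribosomal proteins had 4 of 70, aminoacyl-tRNA synthetases 2 of 31 and proteasome subunits 1 of 33.

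Histone genes had 14 of 46 (30.4%) from 8 peaks, since 6 peaks lay between a divergent pair. Of the 8 peaks, 1 held a NeuroD-type E-box, that of his-67 with his-68. Histone genes have near-identical copies, and how the authors treated reads that fit several copies is not given in the sources used here. Chromatin regulators had 14 of 58 (24.1%), led by set-16 (280.9), a homologue of the MLL histone methyltransferases, lin-54 (275.2) and lin-35 (273), the DNA-binding subunit and the Rb homologue of the DREAM complex, and jmjd-1.2 (219.5), a histone demethylase. The lin-54 peak is the one shared with rpl-12. Only swsn-1 (201.1) and swsn-9 (197.1), subunits of the SWI/SNF remodeller, had a NeuroD-type E-box among the 14.

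Genes for RNA processing, mitochondria and folding were also among those served. Splicing and snRNP proteins had 9 of 48, led by snr-1 (390.9) and hel-1 (251.1), respiratory chain and ATP synthase genes 6 of 38, led by cox-5B (305.8) and cox-6B (227.8), and chaperones 7 of 58, led by cct-1 and hsp-1. With the nearest start only, 5 splicing and 3 chaperone genes were left, and with the 250 bp promoter window 4 and 3. With peaks near non-coding RNA genes kept, they numbered 10 and 12. RNA polymerase II, its general factors and Mediator had 5 of 57, led by mdt-26. Cell cycle regulators had 4 of 49, and a list of Rab, Arf, vesicle coat and secretory genes 3 of 48, namely the translocon subunit gene sec-61.G and the small GTPase genes arf-6 and rab-18. Of the actins and tubulins, 2 of 16 had a promoter peak, tba-1 and tba-2.

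Among developmental genes, the Wnt pathway and axon guidance had the largest shares, at 22.2% and 15.2%, against the 3.36% of all genes. The Wnt pathway had 6 of 27 (22.2%): mig-5, the Nemo-like kinase gene lit-1 (158.1), the Frizzled receptor genes lin-17 (119.4) and mig-1 (105.4), the Ror receptor gene cam-1 (117.2) and the beta-catenin gene sys-1 (111.4). It had 4 and 3 in replicates 1 and 2 alone. Axon guidance and outgrowth had 7 of 46 (6 and 8 in the replicates), namely the semaphorin gene mab-20 (221.8), max-1 (209.7), unc-14 (157.2), the Flamingo cadherin gene fmi-1 (134.8), the netrin receptor genes unc-5 (128.2) and unc-40 (124.6), and unc-76 (122.6). Of these, max-1 had a NeuroD-type E-box, while 0 of the 6 Wnt pathway peaks held one. Regulators of neurogenesis and motor neuron fate had 3 of 37: ztf-11 (244.4), a Myt1-like zinc finger gene that promotes neurogenesis in C. elegans, egl-44 (208), a TEAD factor gene, and the Groucho gene unc-37 (130.3). The first and second held a NeuroD-type E-box. The E-box was not limited to neuronal lists. It was also found at prp-8 (splicing), rab-18 (traffic), tba-1 (tubulins) and mcm-7 (cell cycle). Further peaks with it were those of ceh-86 (homeobox), nhr-2 (nuclear hormone receptors), par-3 (epidermis) and clec-140 (C-type lectins), with 1 peak in each list.

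The other neuronal and tissue lists had between 0 and 3 genes with a promoter peak, and counts this small are hard to tell from the 3.36% of all genes. Synaptic vesicle and active zone genes had 1 of 26, nsf-1 (180.9). Homeobox genes had 3 of 68, ceh-38 (168.3), ceh-86 (161.9) and the Meis gene unc-62 (142.6). Body wall muscle had 2 of 27 (2 and 4 in replicates 1 and 2 alone), unc-112 and unc-60, and epidermis and junctions 1 of 30, the polarity gene par-3. No gene had a promoter peak among 31 bHLH genes with cnd-1 itself among them, 23 Notch pathway genes, 26 T-box and GATA genes, 17 genes of neurotransmitter synthesis and transport, 106 neuropeptide genes, 19 intestinal, 18 pharyngeal and 34 germline genes, in the thresholded list or in either replicate alone. These include aha-1, ahr-1, apx-1, aph-1, ace-2, elt-1, flp-1, ceh-22 and csr-1. A promoter peak is sought only within 500 bp here, so a gene with a distant peak is counted as having none. Summits near non-coding RNA genes are left out as well. With those kept, 1 Notch pathway gene and 1 neuropeptide gene had a promoter peak.

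Of the large gene families, 4 had shares under 1% and the F-box genes a share near that of all genes. Chemoreceptors had 6 of 1320, led by sri-5 (258.5), whose peak is shared with rsr-1, nuclear hormone receptors 2 of 246, cuticle collagens 1 of 143 and C-type lectins 1 of 234, clec-140, whose peak of 374.9 is shared with hmg-11. F-box genes had 15 of 299 (5.02%; 13 and 15 in the replicates), led by fbxc-51 (425.2), fbxb-85 (214.6), fbxb-77 (202.9) and fbxa-3 (189.9). Of the 15 F-box peaks 5 held a NeuroD-type E-box. F-box genes are near-identical in places, so that their peaks may share reads.

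**Figure D5:**
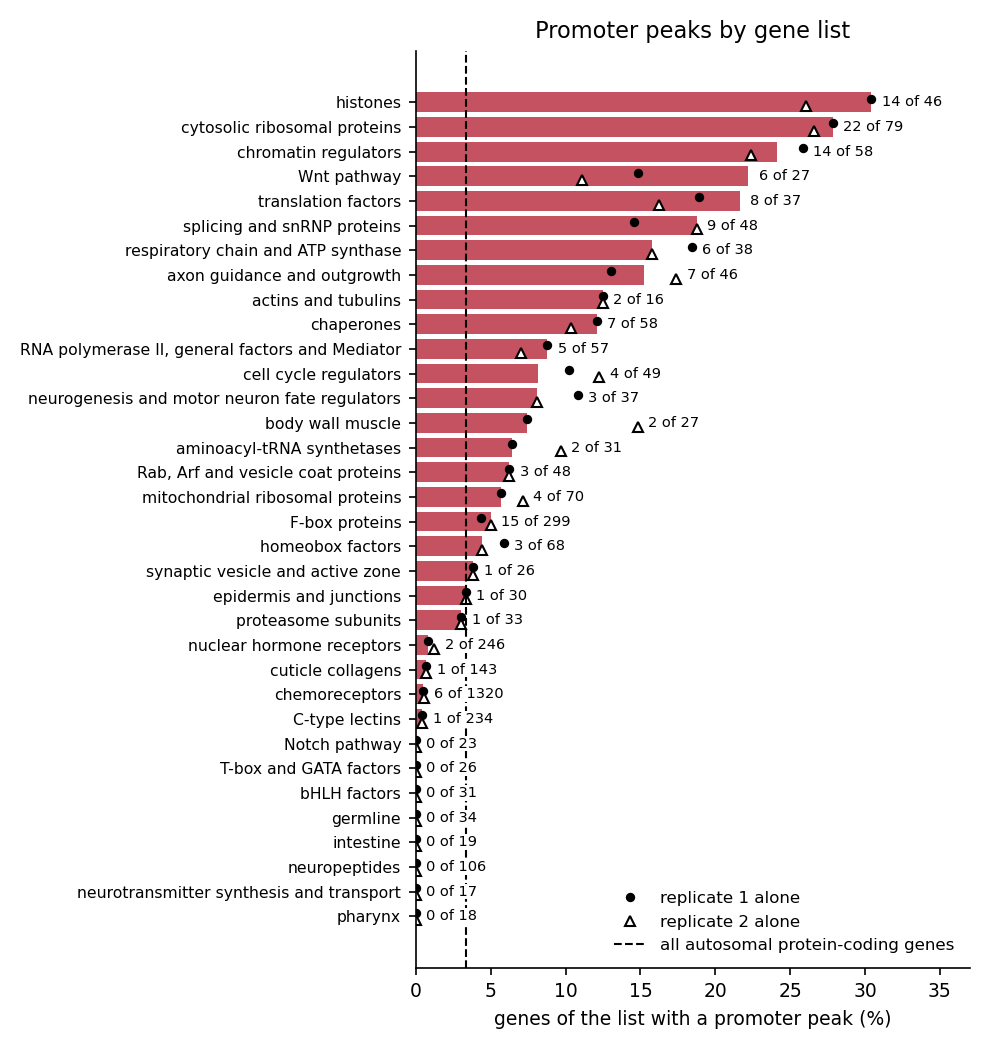
Share of the genes of each list (x axis, %) with a promoter peak, for 34 lists with the number of genes beside each bar. Symbols give each replicate's strongest regions alone and the dashed line the 3.36% of all autosomal protein-coding genes. Histones, cytosolic ribosomal proteins and chromatin regulators stand at 24.1% to 30.4%, and 8 lists stand at 0.

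The promoter peaks were spread unevenly over the autosomes. Chromosome I carried 121 of them, III 95, V 79 and IV 70, with the rest on II, and each replicate alone gave the same first and second chromosomes. Genes with a promoter peak made up 5.21% of the protein-coding genes on I, 4.47% on III, 3.36% on II, 2.93% on IV and 2.00% on V. Over all 5 autosomes 40.3% of the promoter peaks lay in the middle of 3 equal parts of the chromosome, as did 38.1% of the genes. The share of peaks was above that of genes on V (53.2% against 36%) and I (44.6% against 39.4%), and below it on II (32.7% against 36%), III (36.8% against 40.3%) and IV (34.3% against 40.6%).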

How the data were processed

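Binding of tagged CND-1 was measured by ChIP-seq in 2 biological replicates of 1 group, strain OP349, with chromatin sheared to 200 to 800 bp per the labels. The authors deposited 4 peak lists on ce11, the same assembly as WBcel235: the thresholded list, and 1 list for each replicate and 1 for the pooled reads that hold peaks with background. Their signal value was deposited by the authors without a scale and served only for ranks and splits within each list. Their −log10 q-value, as deposited by the authors, was at its highest value of 3.465 in 356 of the 469 promoter peaks and was not used. The aligner, the peak caller and the threshold of the irreproducible discovery rate were not given in the sources used, and the depth is unknown.

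Genes and starts came from Ensembl release 115 and sequence from the RefSeq copy of the assembly. Summits were classified in the order near a non-coding RNA gene, promoter, exon, intron, other gene and intergenic. Sequence windows of 100 bp around the summit and around a point 300 bp farther from the gene were scanned for the 10 E-boxes, 11 other words and all 2080 6-mers. Words present or absent in the 2 windows of a peak were compared by exact McNemar tests, and classes of peaks by two-sided Fisher's exact tests, with Benjamini-Hochberg adjustment within each family, a threshold of 0.05 and, for 6-mers, a fold of 1.5. Peaks that lie close together or share sequence are not independent, so these p-values are too small to an unknown extent. Shares carry 95% Clopper-Pearson intervals. Each replicate's 1964 strongest regions served as a repeat, and replicate values are means ± SD.

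The promoter peaks, gene lists, words and tests were chosen with earlier results of these data known. Of the listed symbols, 8 matched no gene. The ranking of 6-mers among those with as many G or C, the peaks with flanks of like GC content and the comparisons within promoter peaks were chosen after seeing the data. Named genes were those of the 20 strongest promoter peaks, up to 4 per list by signal and those with repeated NeuroD-type E-boxes. Those at the window limits and those that differed most between replicates were named too. The remaining Wnt and axon guidance genes, and the chromatin regulators and prp-8 with a NeuroD-type E-box, were named after their values were seen. The scans were tested on simulated data with planted words. The run without planted words set shuffled flanks against shuffled flanks. It therefore could not show calls that come from the difference in GC content between summits and flanks. Alternatives were each replicate alone, the peaks above the median signal of the list, other promoter, sequence and flank windows, other distances for shared summits, peak centres, thinned summits, peaks near non-coding RNA genes kept, and the nearest gene only. Python 3.11.15, numpy 2.4.6, scipy 1.17.1 and pandas 2.3.3 were used.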

Additional observations from a re-analysis of the deposited data

How the results depend on the processing

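The ratio of E-boxes of any kind over the flank passed in all 13 alternatives run, between 1.54 and 2.47, and the lower share of the NeuroD-type E-box against intergenic peaks in all 10, between 0.389 and 0.564 times. Below, a ratio is that of promoter peaks to the class named, or of the first group to the second within promoter peaks. The cause of each change was not tested, except that fewer peaks, genes or letters were counted by construction where a setting is narrower.

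Replicate 1 alone and replicate 2 alone gave promoter shares of autosomal peaks of 30.77% and 31.46%, median summits at -160 and -158 bp, and head-to-head shares of 24.95% and 24.4%. Signal against intergenic peaks ran from 1.075 to 1.091 and lost its call in both, and against intronic peaks it ran from 1.072 to 1.322 and passed in replicate 1. Any E-box ran from 0.9516 to 0.9826 against intronic peaks, the opposite direction, and from 0.8013 to 0.9376 against intergenic peaks. GC content above the autosomal median was found in 46.9% of promoter peaks, against 40.6% of intronic and 38.7% of intergenic peaks, and its ratio to intergenic peaks ran from 1.032 to 1.17 in the replicates. The summit-to-flank ratio of the NeuroD-type E-box ran from 0.5239 to 0.6181 against intronic and from 0.3602 to 0.4736 against intergenic peaks. Lower 6-mers numbered 33 to 36. Within promoter peaks the NeuroD-type E-box ran from 1.195 to 1.612 for signal and from 0.3838 to 0.5461 for head-to-head layout, and any E-box in the stronger against the weaker peaks from 1.102 to 1.353. The share of the NeuroD-type E-box against X promoters was 1.085 in replicate 1, the opposite direction, and 0.809 in replicate 2. Over the flank, CAACTG turned to 0.857 in replicate 1, against 1.353 in replicate 2, and CAAATG to 0.972 in replicate 2, against 1.105 in replicate 1. Being found in both replicates could not be computed for 1 replicate.

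The peaks above the median signal of the whole list held 239 promoter peaks, 32.87% of autosomal peaks, with a median summit at -169 bp, 28.03% head to head and 308 genes. There, being found in both replicates came to 1.007 against intronic and 0.978 against intergenic peaks, signal to 1.04 and any E-box to 0.86 against intergenic peaks, and any E-box to 0.993 against intronic peaks. The summit-to-flank ratios were 0.301 and 0.35, and 189 6-mers were called over the flank, 35 higher and 18 lower than in the other classes. Within promoter peaks the NeuroD-type E-box came to 1.152 for signal, 0.368 for head-to-head layout and 0.994 for both replicates, head-to-head layout to 1.017 for both replicates, and any E-box to 0.929.

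With the 250 and 50 bp window the share was 22.53%, with 384 genes, 22 lower 6-mers and a rank ratio of 2.889. That ratio, of the promoter share among the second 500 ranks to that beyond rank 10000, was 2.215 with the window of the report. Both replicates against intronic peaks came to 1.149, signal to 1.152, any E-box to 0.893 and GC content to 1.198 against intergenic peaks, and the NeuroD-type E-box to 1.359 against X promoters. Within promoter peaks it came to 0.622 for head-to-head layout and 1.244 for both replicates, and head-to-head layout to 1.223. With the 1000 and 200 bp window the share was 40.07%, with 30 lower 6-mers and a rank ratio of 1.535, and the values were 1.119 for both replicates, 0.946 for any E-box and 0.269 for the summit-to-flank ratio against intronic peaks, 1.191 for GC content against intergenic peaks and 0.69 for head-to-head layout.

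With peaks near non-coding RNA genes kept, the share was 38.63%, with 32 lower 6-mers, and against intronic peaks signal came to 0.98, both replicates to 1.031, the NeuroD-type E-box to 0.692, GC content to 0.993 and the summit-to-flank ratio to 0.416. Signal against intergenic peaks came to 1.136 and the NeuroD-type E-box against X promoters to 1.017. Summits shared within 200 bp gave 1.089 for both replicates against intronic peaks. Thinned summits gave 1.193 for signal and 1.205 for GC content against intergenic peaks, and peak centres 1.2 for GC content.

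Windows of 60 bp gave 0.987 for any E-box against intronic and 0.823 against intergenic peaks, summit-to-flank ratios of 0.2 and 0.444, 1.215 against X promoters, and 45 higher and 12 lower 6-mers. Windows of 200 bp gave 156 higher and 111 lower 6-mers, 0.998 for any E-box and 0.639 for the summit-to-flank ratio against intronic peaks, and GC content of 0.684 against intronic and 0.7 against intergenic peaks, both past the threshold in the opposite direction. Within promoter peaks they gave 1.31, 0.545 and 1.168 for the NeuroD-type E-box and 1.167 for any E-box. A flank 500 bp away gave summit-to-flank ratios of 0.679 and 0.392, and a flank towards the gene gave 0.826 for CACATG. Pairs of windows of like GC content, chosen after seeing the data, gave 3 for the NeuroD-type E-box and 0 6-mers by the exact McNemar test. Of 306 counts of gene lists under alternatives, 51 moved by over 1.5 times. No paired analysis was possible because both replicates belong to 1 group.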
